A study of Mus musculus with 4 samples.

Results

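Granulocyte-monocyte progenitors were examined in the bone marrow of 5TMM mice as the cells rich in Elane and Mpo transcripts. They were chosen by raw counts of unique molecular identifiers (UMIs, 1 for each captured transcript), as cells with at least 10 UMIs of Elane and 10 of Mpo, at most 2 of Ltf, at most 1 of Rhox5 and 0 of Cd79a. Of 39743 cells that had 300 or more detected genes and no more than 20% of their UMIs from mitochondrial genes, 1682 were members, that is 4.23%. The choice rests on measured values, so the levels of these 5 genes describe the gate and are not a result.

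In the 5TMM model, 5TGM1-luc myeloma cells are injected into the vein of 6-week-old C57BL/KawRij mice and grow in the marrow. All 4 mice carried this myeloma for 3 weeks, and 2 of them then received vehicle and 2 received purinostat mesylate (PM) at 10 mg/kg, an inhibitor of class I and IIb histone deacetylases. Marrow was taken 24 h later, red cells were lysed, and 1 droplet-based single-cell library was made per mouse, so that the mouse is the replicate. The libraries held 86052982 and 69828595 UMIs in vehicle mice 1 and 2 and 109447030 and 74388936 UMIs in PM mice 1 and 2.

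Granulocyte-monocyte progenitors give rise to neutrophils and monocytes. In the marrow they are known for heavy transcription of the serine proteases and the peroxidase of the primary, or azurophil, granule, which are made before the secondary granule proteins appear. The factor Irf8 is associated with the monocyte side of this branch point, and Gfi1 and Cebpe with the neutrophil side.

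The markers that the gate did not use, Ctsg, Prtn3, Ms4a3 and Gfi1, were higher in the members than in the other kept cells. The ratios of Mpo and Elane follow from the gate. Whether single members could still form both neutrophils and monocytes was not tested, and the name is that of the gate. Among 3451 genes with at least 50 CPM (counts scaled to the same total in every library) in the members, Mpo, which makes hypochlorous acid in the granule, had the highest ratio to all other kept cells at 11.2. It was followed by Ctsg (cathepsin G, 10.8), Elane (neutrophil elastase, 10.5) and Prtn3 (proteinase 3, 9.47). Ms4a3, a membrane protein of these progenitors, ranked 8 with a ratio of 6.86, and Gfi1, a transcriptional repressor of the neutrophil lineage, ranked 23 with 4.22. Between Prtn3 and Ms4a3 in this order stood Dmkn (9.32), Mgl2 (7.65) and Cst7 (7.15). Directly after Ms4a3, and before Gfi1, came Gstm1 (6.85), Prss57 (6.34), Nkg7 (5.73), Tspoap1 (5.45), Vat1 (5.42), Tfec (5.13) and Gria3 (4.78). Prss57 is a further serine protease of the azurophil granule, Cst7 an inhibitor of cysteine proteases, and Tfec a transcription factor. These ratios describe the gated cells and were not tested.

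A window of 250 bases before to 50 after the RefSeq start site was at hand for all 6 marker genes. The letters AGGAAGT, the core of the sites that the myeloid factor PU.1 binds, stood on either strand in 4 of these 6, while 9.35% of all 32851 windows held them. The letters were chosen after the sequences had been seen, and a match describes the sequence and not a bound site. The stretches around the matches in the protease and peroxidase genes are shown because these transcripts define the members. They are from RefSeq, build GRCm38.p6, lie outside annotated exons and read 5′ to 3′ on the gene's strand, with the motif in capitals.
Elane, chr10:79886178-79886246, plus strand: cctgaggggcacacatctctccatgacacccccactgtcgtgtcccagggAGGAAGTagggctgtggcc
Prtn3, chr10:79879523-79879613, plus strand: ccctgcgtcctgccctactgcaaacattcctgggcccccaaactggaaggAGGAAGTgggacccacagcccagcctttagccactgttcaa
Mpo, chr11:87793534-87793580, plus strand: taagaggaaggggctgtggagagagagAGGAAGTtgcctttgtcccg
Ctsg, chr14:56102724-56102824, minus strand: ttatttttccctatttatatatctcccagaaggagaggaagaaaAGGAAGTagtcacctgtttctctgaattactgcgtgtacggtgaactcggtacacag
The match began 84 bases before the RefSeq start site in Elane, 94 in Prtn3, 223 in Mpo and 206 in Ctsg.

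The members had many UMIs and mostly held transcripts of cycling cells. A gate on raw UMIs of Elane and Mpo favours cells of high depth, so their depth is in part set by the gate. Their median depth was 31939 and 34127.5 UMIs in the vehicle mice and 22739 and 26712 UMIs in the PM mice, against 4474 to 5853 UMIs in the other kept cells. The median mitochondrial share of their UMIs was 3.42% and 3.32% in vehicle 1 and 2 and 4.65% and 4.32% in PM 1 and 2. Depth was thus lower and the mitochondrial share higher in both PM mice, and the part of these differences in the results below was tested only where a setting is named. A gene was present with a median of 133 UMIs per member for Elane, 203 for Mpo, 169 for Prtn3, 31 for Ctsg, 19 for Ms4a3 and 2 for Gfi1. Gfi1 had at least 1 UMI in 66.0% of all members and the other 5 markers in 97.3% or more.

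The background of such counts was read from T cells, and whether free RNA or doublets gave it was not tested. Among T cells (Cd3e of at least 2 UMIs and Cd79a of 0, 100 to 248 per mouse, median depth 3496.5 to 4226 UMIs), which should lack these genes, 4% to 14.5% held an Elane UMI and 16% to 34.3% an Mpo UMI. Of these T cells, 0, 3, 3 and 0 passed the Elane and Mpo limits of 10 UMIs in vehicle 1, vehicle 2, PM 1 and PM 2. At the edge of the gate, 92 members with 10 to 19 Elane UMIs had 664 CPM of Elane and 3010 CPM of Prtn3, and 75 cells just outside, with 5 to 9, had 445 and 2400 CPM. In 354 cells with 3 to 5 Ltf UMIs that were otherwise inside, Elane stood at 4865 CPM and Camp at 5169 CPM, against 5525 and 3608 CPM in all members.

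Within the gate, the members spread along the monocyte and neutrophil sides. After each member was thinned to 5000 UMIs, Irf8 was found in 42.3% and 43.3% of members in the vehicle mice and in 45.3% and 37.3% in the PM mice. Cebpe was found in 44.2% and 44.5% in vehicle 1 and 2 and 45.6% and 48.9% in PM 1 and 2. T cells held an Irf8 UMI in 9% to 17% and a Cebpe UMI in 1% to 4.03%. Members with both were 4.60%, 2.76%, 6.65% and 4.99% in vehicle 1, vehicle 2, PM 1 and PM 2, while the products of the single shares were 18.7%, 19.3%, 20.7% and 18.2%. The factors were therefore seen together in fewer members than the products of their shares in each of the 4 mice, and 14.96% to 18.8% had neither.

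The members with Irf8 and without Cebpe differed from those with Cebpe and without Irf8 in the 4 mice alike. Gfi1 stood at 15.4 ± 5.48 CPM (SD, n = 4 mice) in the Irf8 cells and 287 ± 78.3 CPM in the Cebpe cells. Fcnb, the ficolin of early neutrophil granules, stood at 43.8 ± 11.4 and 960 ± 162 CPM. Camp, the cathelicidin of the secondary granule, stood at 80.2 ± 29.7 and 10197 ± 3216 CPM, and S100a8, a calcium-binding protein of neutrophils and monocytes, at 1227 ± 462 and 27788 ± 2082 CPM. The azurophil transcripts were shared more evenly, with Prtn3 at 4572 ± 348 and 9698 ± 1096 CPM, Ctsg at 943 ± 169 and 1844 ± 389 CPM and Elane at 2453 ± 774 and 8930 ± 1029 CPM. In the other direction, F13a1, a coagulation factor of monocytes, stood at 914 ± 32.5 CPM in the Irf8 cells and 55.7 ± 10.5 CPM in the Cebpe cells. The chemokine receptor Ccr2 stood at 447 ± 70.3 and 14.2 ± 7.08 CPM, and Csf1r, the M-CSF receptor, at 103 ± 20.2 and 4.22 ± 3.85 CPM. For all of these genes the values of the 4 mice in one class lay apart from those in the other. Ly6c2, a surface protein of monocytes and their precursors, was closer, at 3349 ± 461 and 2370 ± 350 CPM. The classes were cut from the same cells, so these values are a description. A member without a UMI of a factor in 5000 may still express it.

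**Figure D1:**
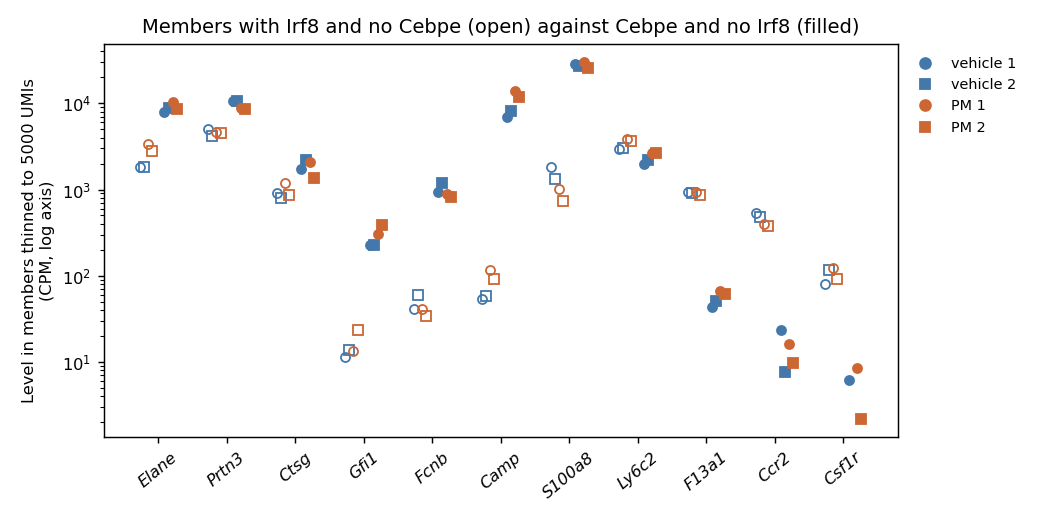
Levels of 11 genes in CPM (log axis) in members thinned to 5000 UMIs, with 1 point per mouse. Open points are members with an Irf8 UMI and none of Cebpe, filled points those with Cebpe and without Irf8; Csf1r was at 0 in the filled class of vehicle 2 and is not drawn. Gfi1, Fcnb, Camp and S100a8 lie higher in the Cebpe class and F13a1, Ccr2 and Csf1r in the Irf8 class in every mouse.

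The first comparison asked whether the members took another share of the marrow after PM. They made up 3.58% of kept cells in vehicle 1 (332 of 9261, exact binomial 95% confidence interval 3.22% to 3.98%) and 3.30% in vehicle 2 (258 of 7826, 2.91% to 3.72%). In PM 1 they made up 4.98% (667 of 13387, 4.62% to 5.36%) and in PM 2 4.59% (425 of 9269, 4.17% to 5.03%). The intervals cover counting error only. The mean share was 3.44% ± 0.204 in the vehicle mice and 4.78% ± 0.281 in the PM mice (SD, n = 2 each), a ratio of 1.39, and both PM mice lay above both vehicle mice. The exact two-sided permutation test gave p = 0.333, the smallest that 2 mice against 2 allow. Gates scaled to 10000 UMIs per cell, which allow for the lower depth after PM, gave a ratio of 1.51. A further setting kept only cells with less than 1% of UMIs from S100a8 and S100a9, which leaves out most neutrophils. The limit applied to the members too, of which 61.1%, 60.9%, 62.5% and 58.6% passed in vehicle 1, vehicle 2, PM 1 and PM 2. The shares of these members were 8.70%, 5.07%, 8.80% and 8.13% in the same order. There the groups overlapped, with vehicle 1 between the PM mice, and the ratio was 1.23.

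Neighbouring populations, gated in the same way, did not share this order. Early neutrophil precursors (at least 3 UMIs each of Fcnb and Camp and at least 2 of Mki67 and Top2a together) made up 8.99% and 6.90% of kept cells in vehicle 1 and 2 and 7.03% and 6.20% in PM 1 and 2, which overlap. Cycling monocyte progenitors (at least 3 UMIs of Ly6c2, 1 of Irf8, 1 of F13a1 and 2 of Mki67 and Top2a together, at most 2 of Camp) made up 3.42% and 3.08% in vehicle 1 and 2 and 2.38% and 1.996% in PM 1 and 2, so that both PM mice lay below both vehicle mice. Early stem and multipotent progenitors (at least 1 UMI each of Cd34 and Kit, at most 2 of Elane, 9 of Mpo and 2 of Ltf) made up 0.702% and 0.613% in vehicle 1 and 2 and 0.672% and 0.647% in PM 1 and 2. Shares of 1 library add up to a whole, so that these values are not independent of each other, and the differences between populations were not tested.

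**Figure D2:**
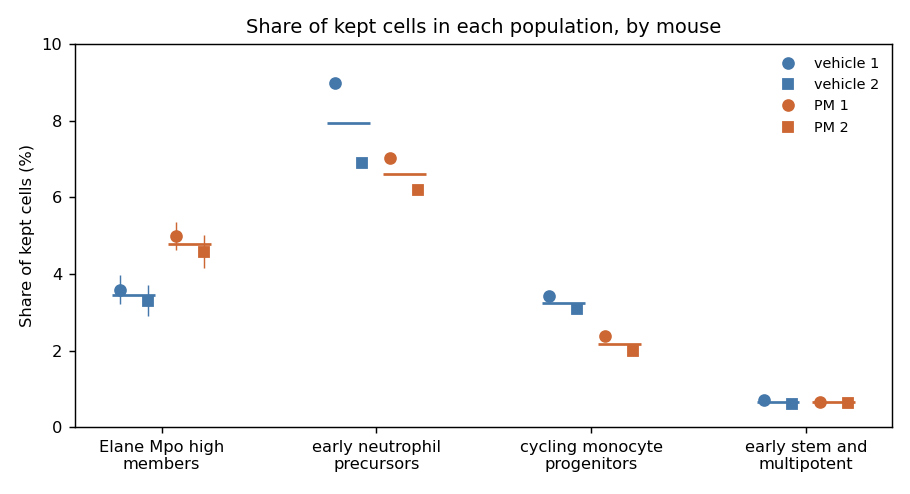
Share of kept cells (%) of the Elane Mpo high members and of 3 neighbouring populations, with 1 point per mouse, the group means as horizontal lines and exact 95% binomial intervals as vertical lines for the members. The members lie at 3.30% and 3.58% in the vehicle mice and at 4.59% and 4.98% in the PM mice.

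The second comparison asked which transcripts differed in the members after PM. Counts were summed per mouse (8839740 to 15851057 UMIs) and tested with edgeR's quasi-likelihood test, and a gene was called where the p adjusted by Benjamini and Hochberg's method lay under 0.05 and the log2 fold change was beyond 0.5 in size. Of 11699 genes tested, 17 were called higher after PM (0.145%) and 2 were called lower (0.0171%). At an unadjusted p under 0.05 there were 877 higher and 547 lower. The labels do not say how the mice were kept or handled, so the p-values measure the spread between these 4 samples. DESeq2, with its own size factors, called 38 higher and 11 lower, and the 19 genes called by edgeR were among them. With each mouse left out in turn the 19 were among 92 to 375 called genes. Those fits leave 1 group with a single mouse, which is assumed to vary like the other group, so they are no independent support for the 19.

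The identity genes of the members were not called in either direction. In CPM scaled by the trimmed mean of M-values (TMM), Prtn3 stood at 7401 and 7243 CPM in the vehicle mice and 6745 and 6269 CPM in the PM mice, a log2 fold change of -0.17 ± 0.19 (SE; adjusted p = 0.747). Ctsg stood at 1416 and 1780 CPM against 1847 and 1195 CPM (-0.07 ± 0.22, adjusted p = 0.923), and Ms4a3 at 801 and 807 CPM against 888 and 820 CPM (0.09 ± 0.14, adjusted p = 0.835). Gfi1 stood at 126 and 109 CPM in the vehicle mice and 142 and 194 CPM in the PM mice (0.51 ± 0.15, adjusted p = 0.243). The groups overlapped for Ctsg and lay apart for Prtn3, Ms4a3 and Gfi1. Elane (0.39, adjusted p = 0.464) and Mpo (0.30, adjusted p = 0.565) were used by the gate, so their values are not a result. Of 22 tested azurophil granule genes, which include Mpo, none was called by edgeR or DESeq2. Over all genes tested edgeR called 0.162%, so no call among 22 is not read as a result. At an unadjusted p under 0.05, 3 of the 22 were higher and 1 lower, beside 877 higher and 547 lower of all 11699 genes. The median log2 fold change of the 22 was 0.07, beside -0.0027 over all genes tested.

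Among the genes with at least 20 CPM, 8 rose after PM, among them a chromatin protein, a linker histone and several genes of the cell surface and cytoskeleton. Ptms (parathymosin, chr6:124913681-124920103), a small acidic protein that binds linker histones, stood at 19.1 and 21.6 CPM in the vehicle mice and 60.3 and 50.2 CPM in the PM mice. Its log2 fold change was 1.45 ± 0.14 (adjusted p = 0.0087), and with other gates it was 1.14 at limits of 5 UMIs, 1.79 at 20 UMIs and 2.12 with gates scaled to 10000 UMIs per cell. H1f0 (chr15:79028450-79030504), a replication-independent linker histone of cells that leave the cycle, stood at 39.0 and 37.1 CPM against 63.2 and 62.4 CPM. Its log2 fold change was 0.72 ± 0.11 (adjusted p = 0.0459). Both PM mice lay above both vehicle mice for both genes. The 25 tested linker and variant histones had a median of -0.25. H1f0 was the only one of them called, while 0.162% of all genes tested were called. It was not called with RLE size factors (0.71, adjusted p = 0.0501), with gate limits of 5 UMIs (0.65, adjusted p = 0.0522) or in members with at most 2 Camp UMIs (0.45, adjusted p = 0.306). The other replication-independent linker histone of that list, H1fx, had a log2 fold change of 1.00 (adjusted p = 0.112), with 4.99 and 5.14 CPM in the vehicle mice and 10.2 and 9.94 CPM in the PM mice.

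Siglecg, an inhibitory lectin that binds sialic acid, stood at 37.3 and 39.7 CPM in the vehicle mice and 82.5 and 81.5 CPM in the PM mice (1.09 ± 0.11, adjusted p = 0.0087). Vcam1, an adhesion molecule for integrin alpha4 beta1, stood at 82.6 and 99.4 CPM against 175 and 211 CPM (1.08 ± 0.14, adjusted p = 0.024). Gsn (gelsolin, which severs actin filaments) stood at 34.0 and 31.6 CPM against 65.8 and 60.3 CPM, and Cd9, a tetraspanin, at 45.3 and 55.3 CPM against 96.2 and 93.6 CPM. Gsn and Cd9 thus rose by 0.94 ± 0.11 and 0.92 ± 0.12 on the log2 scale. Serpine2, an inhibitor of serine proteases, rose by 0.87 ± 0.12, and Prkcb, the protein kinase C beta gene, by 0.73 ± 0.11. For these 6 genes the vehicle and PM mice did not overlap. With gates scaled to 10000 UMIs per cell, 5 of the 6 were not called, all but Siglecg. There the log2 fold changes were 0.85 for Vcam1 (adjusted p = 0.123), 0.55 for Gsn (adjusted p = 0.0968), 0.60 for Cd9 and 0.61 for Serpine2 (adjusted p = 0.103 for both) and 0.53 for Prkcb (adjusted p = 0.129). Vcam1 was also not called in members with at most 2 Camp UMIs (0.70, adjusted p = 0.127), nor Serpine2 after thinning to 10000 UMIs per member (0.71, adjusted p = 0.11). Prkcb was not called with RLE size factors either (0.72, adjusted p = 0.0501). Vcam1 is also a marker of marrow macrophages and stromal cells. The macrophage genes C1qa and C1qb had 19, 7, 31 and 16 UMIs and 13, 3, 10 and 8 UMIs in the members of vehicle 1, vehicle 2, PM 1 and PM 2, against 927, 852, 2694 and 2626 UMIs of Vcam1. Other markers of these cells had higher values in both PM mice, with 31, 11, 109 and 64 UMIs of Axl, 82, 67, 205 and 102 of Adgre1 and 1, 2, 20 and 15 of the stromal gene Igfbp7, and none of these 3 was called. The 16 macrophage and monocyte markers summed to 3.30, 3.33, 4.16 and 3.92 per 1000 UMIs, led by Ly6c2, and the 12 stromal markers to 0.122, 0.132, 0.222 and 0.274, led by Vcam1, which both lists hold. Both sums were higher in both PM mice. Vcam1 had a UMI in 40.1%, 43.0%, 51.3% and 56.9% of the members. A further setting kept the 116 members without a UMI of 15 genes of other lineages, among them C1qa, C1qb and C1qc but no stromal marker. These were 34, 12, 26 and 44 members in vehicle 1, vehicle 2, PM 1 and PM 2. The 15 genes include Igkc, which had a UMI in 61.4%, 58.9%, 78.7% and 62.4% of all members. In the 116, Vcam1 rose by 1.87 (adjusted p = 0.000692), and Gsn and H1f0 were called as well. The log2 fold changes of Siglecg (0.86), Cd9 (1.35), Serpine2 (1.13), Prkcb (1.14) and Ptms (2.70) had adjusted p of 0.0634 to 0.261 in these few members. The part of stromal cells in the result was not tested.

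The other 11 called genes had a mean under 20 CPM. Of these, Rsad2 and H2-Ab1 belong to lists and Ly6a to a comparison with another population, and the remaining 8 are named here although the rule for named genes leaves them out. Thy1, the surface glycoprotein of T cells and of some stem cells, stood at 0.624 and 0.817 CPM in the vehicle mice and 6.48 and 3.93 CPM in the PM mice (2.87 ± 0.42, adjusted p = 0.0455). Ly6a, the gene of the stem cell antigen Sca-1, stood at 1.69 and 0.934 CPM against 10.2 and 7.78 CPM (2.73 ± 0.32, adjusted p = 0.0201). Spink2, a protease inhibitor gene found in stem and progenitor cells, stood at 0.802 and 0.817 CPM against 5.96 and 3.77 CPM (2.58 ± 0.40, adjusted p = 0.0471). These are low counts, with 7, 7, 100 and 49 UMIs of Thy1 in all members of vehicle 1, vehicle 2, PM 1 and PM 2. They came from 4, 6, 72 and 36 members. T cell genes were low in the same 332, 258, 667 and 425 members, with 1, 5, 18 and 1 UMIs of Cd3e, 4, 1, 23 and 20 of Trbc1, 1, 13, 41 and 17 of Trbc2, 2, 12, 36 and 19 of Il7r and 2, 1, 23 and 7 of Cd8a. Their part in the results for Thy1 and Ly6a was not tested. Nor was it tested whether Ly6a rose together with the interferon-stimulated genes described below. After thinning to 10000 UMIs per member, Thy1, Ly6a and Spink2 were not called, Ly6a with a log2 fold change of 3.51 and an adjusted p of 0.0563. Thy1 was also not called in members with at most 2 Camp UMIs (2.58, adjusted p = 0.062), nor Spink2 with RLE size factors (2.58, adjusted p = 0.0501). Over the settings in which each gene was tested, the lowest log2 fold changes were 2.46 for Thy1, 2.30 for Ly6a and 2.11 for Spink2. The others called higher were Gstm5, a glutathione transferase (1.41), Selenom, a selenoprotein of the endoplasmic reticulum (1.81), Dmc1, a recombinase of meiosis (1.88), and F730016J06Rik (2.46). Each of these 4 lost its call in members with at most 2 Camp UMIs (1.12 to 2.35, adjusted p of 0.0609 to 0.214). Gstm5, Selenom and Dmc1 lost it with RLE size factors as well, at an adjusted p of 0.0501, Gstm5 and F730016J06Rik after thinning to 10000 UMIs per member (1.62 and 2.02), and Gstm5 with scaled gates (1.22, adjusted p = 0.0515).

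Per1 and Gm49980 were the genes called lower. Per1, a repressor of the circadian clock, stood at 20.6 and 17.5 CPM in the vehicle mice and 8.75 and 8.58 CPM in the PM mice (-1.14 ± 0.16, adjusted p = 0.0455). The other period genes were not called, with 0.42 for Per2 (adjusted p = 0.482) and 0.30 for Per3 (adjusted p = 0.365), both named after their values had been seen. Gm49980 stood at 14.1 and 10.2 CPM against 2.92 and 2.57 CPM (-2.14 ± 0.25, adjusted p = 0.0201). After thinning to 10000 UMIs per member, Per1 stood at -1.05 (adjusted p = 0.204) and Gm49980 at -1.69 (adjusted p = 0.112), and neither was called.

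**Figure D3:**
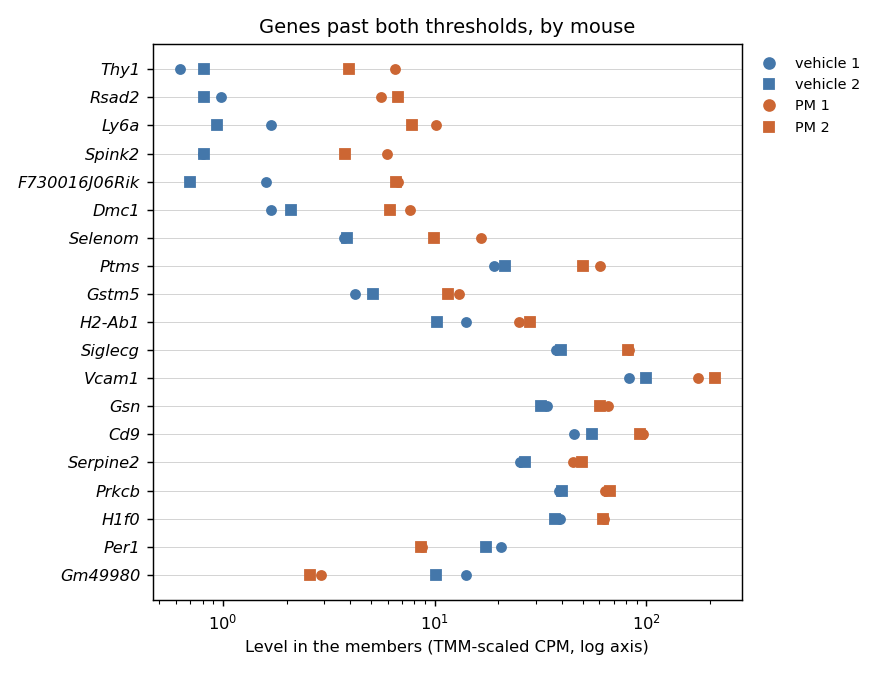
TMM-scaled CPM (log axis) of the 19 called genes in the members of PM and vehicle mice, with 1 point per mouse. The vehicle and PM mice are apart for each gene, and several of the genes with the widest gaps, such as Thy1, Rsad2 and Ly6a, are under 2 CPM in the vehicle mice.

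Most interferon-stimulated transcripts had higher values after PM in the members. Type I interferon signals through its receptor to a set of antiviral genes. Of 62 tested genes of this response, 1 was called higher, against 0.145% of all genes tested, and none lower. A positive log2 fold change was found in 55 (88.7%, against 49.5% of all genes tested), and 40 were higher in all 4 vehicle-PM pairs (64.5%, against 23.4%). The median log2 fold change was 0.50. At an unadjusted p under 0.05 there were 33 of the 62, beside 877 higher and 547 lower of all 11699 genes. DESeq2 called 4 of the list, beside 38 higher and 11 lower of 12028 genes. The called gene was Rsad2 (viperin, chr12:26442746-26456452), which stood at 0.980 and 0.817 CPM in the vehicle mice and 5.57 and 6.73 CPM in the PM mice. Its log2 fold change was 2.74 ± 0.33 (adjusted p = 0.0201). A single member held 23 of the 84 Rsad2 UMIs of PM 2, and after thinning to 10000 UMIs per member Rsad2 was not called (2.11, adjusted p = 0.11). With scaled gates it was called at 2.12. Other members of the response, named after their values had been seen, did not pass the threshold. They include Rtp4 (2.30, adjusted p = 0.0591), Xaf1 (1.32, adjusted p = 0.0591), Oasl2 (1.54, adjusted p = 0.0672), Ifi27l2a (1.58, adjusted p = 0.093) and Ifit1 (2.12, adjusted p = 0.134). The most abundant members of the list were Ifitm2 at 276, 306, 334 and 226 CPM (-0.05) and Ifitm3 at 211, 141, 251 and 151 CPM (0.19) in vehicle 1, vehicle 2, PM 1 and PM 2. The marker lists of other cell types all had positive medians as well, from 0.22 (later neutrophils) to 1.19 (T and NK cells). The share of all genes tested is not matched for level. The part of background or of other cells in the values of the interferon list was not tested.

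The core of the interferon-stimulated response element, that is TTTC and a second TTTC with any 2 bases between them, was found on either strand in 3.44% of the 32851 promoter windows. Among the 14 called genes with a window, Rsad2 alone held them. The stretch is shown for that gene, 120 bases before its RefSeq start site, with the motif in capitals.
Rsad2, chr12:26456513-26456622, minus strand: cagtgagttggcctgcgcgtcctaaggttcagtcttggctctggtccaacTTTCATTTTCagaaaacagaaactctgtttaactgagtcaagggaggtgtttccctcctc

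MHC class II genes, which present peptides to CD4 T cells, were also low in the members. Of 9 tested, 9 had a positive log2 fold change, against 49.5% of all genes tested, with a median of 1.32, and 1 was called higher, against 0.145%. H2-Ab1, the beta chain of I-A, stood at 14.1 and 10.3 CPM in the vehicle mice and 25.1 and 28.2 CPM in the PM mice (1.11 ± 0.17, adjusted p = 0.0471). Its partner H2-Aa stood at 6.77, 0.700, 9.85 and 16.9 CPM and the invariant chain Cd74 at 10.96, 1.87, 17.2 and 25.01 CPM in vehicle 1, vehicle 2, PM 1 and PM 2, with adjusted p of 0.557 and 0.518. The most abundant genes of the list, which encode the peptide-loading protein H2-DM, were H2-DMa at 54.1, 68.4, 80.2 and 51.1 CPM (0.11, adjusted p = 0.885), where the groups overlap, and H2-DMb1 at 24.2, 25.9, 33.2 and 29.2 CPM (0.32, adjusted p = 0.365). A single member held 122 of the 352 H2-Ab1 UMIs of PM 2. B cell markers also had higher values, and their part in this result was tested only as stated below. Of 14 markers, 8 were tested and 8 had a positive value, with a median of 0.95, and their summed level was 0.167, 0.210, 0.299 and 0.205 per 1000 UMIs in the 4 mice, led by Ighm. Of the defining B cell genes, Ms4a1 had 0, 5, 5 and 3 UMIs in vehicle 1, vehicle 2, PM 1 and PM 2, and Cd79a was at 0 by the gate. The dendritic cell markers summed to 0.0929, 0.0707, 0.115 and 0.104 per 1000 UMIs, led by Bst2. Without called doublets H2-Ab1 was no longer called (1.01, adjusted p = 0.0536), and in the 116 members without UMIs of other lineages it stood at -0.34 (adjusted p = 0.904). It was also not called after thinning to 10000 UMIs per member (0.67, adjusted p = 0.408) or in members with at most 2 Camp UMIs (0.71, adjusted p = 0.275). With RLE size factors it was not called either (1.11, adjusted p = 0.0501). T and NK cell markers had a median of 1.19 over 6 tested of 16, with a sum of 0.395, 0.446, 0.567 and 0.498 per 1000 UMIs led by Nkg7, which the members themselves express.

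None of the 22 tested genes of the stem and progenitor list, which does not hold the called genes Ly6a, Spink2 and Thy1, was called by edgeR or DESeq2. Over all genes tested edgeR called 0.162%. Of these 22, 20 had a positive log2 fold change, against 49.5% of all genes tested, and the median was 0.22. At an unadjusted p under 0.05, 8 of the 22 were higher, beside 877 of all 11699 genes. Cd34, a surface mucin of early progenitors, stood at 54.8, 71.3, 89.7 and 104 CPM (0.62, adjusted p = 0.132) and Gata2, a factor of early progenitors, at 3.12, 3.50, 7.52 and 9.46 CPM (1.36, adjusted p = 0.0732) in vehicle 1, vehicle 2, PM 1 and PM 2. Gata2 is also a marker of basophils and mast cells, and its UMIs came from 15, 15, 46 and 37 members, with 28 of the 118 UMIs of PM 2 in a single member. The 12 basophil and mast cell markers summed to 0.393, 0.39, 0.376 and 0.532 per 1000 UMIs, led by Lmo4, with 20, 1, 86 and 499 UMIs of Prss34 and 231, 177, 380 and 732 of Mcpt8 in the 4 mice. Their part in the value for Gata2 was not tested. Kit, the receptor of stem cell factor, stood at 75.1, 97.0, 77.2 and 99.9 CPM (0.04). After thinning, Cd34 was found in 15.95% and 16.5% of members in vehicle 1 and 2 and 20.4% and 25.9% in PM 1 and 2, against at most 2% of T cells.

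Secondary granule genes, which lie further along the neutrophil path, were not called by edgeR, while DESeq2 called Camp and Ngp, a further granule protein gene. Over all genes tested edgeR called 0.162% and DESeq2 49 of 12028. Of 20 tested secondary granule genes, 15 had a positive log2 fold change, against 49.5% of all genes tested, with a median of 0.13. At an unadjusted p under 0.05, 7 of the 20 were higher, beside 877 of all 11699 genes. Camp stood at 2174 and 2661 CPM in the vehicle mice and 4773 and 4117 CPM in the PM mice (0.88 ± 0.19, adjusted p = 0.128), so that the groups lay apart. Fcnb stood at 333 and 416 CPM against 323 and 333 CPM (-0.19), and S100a8 at 10830 and 10020 CPM against 11322 and 9578 CPM (0.00). After thinning, 42.9% and 43.7% of members in vehicle 1 and 2 and 62.2% and 58.9% in PM 1 and 2 held a Camp UMI. T cells held one in 49%, 41%, 68.95% and 54.1% in vehicle 1, vehicle 2, PM 1 and PM 2 at a lower depth, so that the share of members with a Camp UMI is at background and no difference is read from it.

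Cell cycle and biosynthesis lists had medians at or below 0, with no gene called by edgeR or DESeq2, while edgeR called 0.162% of all genes tested. Of 54 tested G2M genes, 4 had a positive log2 fold change, against 49.5% of all genes tested, and the median was -0.18. At an unadjusted p under 0.05, 9 of the 54 were lower, beside 547 of all 11699 genes. In all 4 pairs 35 were lower (64.8%, against 21% of all genes tested). Top2a, the mitotic topoisomerase, stood at 688 and 668 CPM in the vehicle mice and 562 and 580 CPM in the PM mice (-0.25, adjusted p = 0.466), and Mki67 at 524 and 561 CPM against 481 and 434 CPM (-0.25, adjusted p = 0.471). The median of 43 S phase genes was -0.03. At 5000 UMIs per member, 96.0% and 93.7% of members in vehicle 1 and 2 and 89.6% and 88.1% in PM 1 and 2 held a UMI of Mki67 or Top2a, a difference of -6.01 percentage points. The exact permutation p was 0.333, the smallest possible. T cells held such a UMI in 11.7% to 17%. Without thinning the shares were 99.1%, 99.6%, 98.5% and 98.8%.

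Nucleolar and MYC target genes had a median of -0.25 over 47 tested, of which 30 were lower in all 4 pairs (21% of all genes tested were). At an unadjusted p under 0.05, 16 of the 47 were lower, beside 547 of all 11699 genes. Npm1, a nucleolar chaperone, stood at 2102 and 1945 CPM against 1653 and 1742 CPM (-0.25, adjusted p = 0.536). Nuclear-encoded oxidative phosphorylation genes had a median of -0.15 over 76 tested, of which 33 were lower in all 4 pairs, beside the same 21% of all genes. At an unadjusted p under 0.05, 7 of the 76 were lower, beside the same 547 of all 11699 genes. The 26 tested immediate early and feedback genes had a median of -0.43, with 8 lower at an unadjusted p under 0.05, beside 547 of all 11699 genes. Zfp36, which destabilises cytokine transcripts, stood at 188 and 184 CPM in the vehicle mice and 76.6 and 114 CPM in the PM mice (-0.97, adjusted p = 0.0833), and Fos at 244 and 287 CPM against 123 and 192 CPM (-0.75, adjusted p = 0.24). Both genes were lower in both PM mice and were called by DESeq2 but not by edgeR.

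Genes of the targets of PM were not called. The 29 tested deacetylase and corepressor genes had a median of -0.01, with no call by edgeR or DESeq2, while edgeR called 0.162% of all genes tested. At an unadjusted p under 0.05, 2 of the 29 were higher and 1 lower, beside 877 higher and 547 lower of all 11699 genes. These counts are near the shares over all genes and are not read as a result about the targets. Hdac1 stood at 134 and 137 CPM in the vehicle mice and 140 and 134 CPM in the PM mice, and Hdac3 at 47.0 and 43.0 CPM against 42.4 and 49.9 CPM. Medians were 0.05 over 40 myeloid transcription factors, 0.02 over 24 monocyte commitment genes, -0.04 over 25 growth factor receptors, 0.06 over 25 p53 targets, -0.06 over 15 genes of the BCL2 family and -0.13 over 31 genes of the unfolded protein response, with no gene called by edgeR in these lists. DESeq2 called 1 gene of them, Cx3cr1 in the monocyte commitment list. At an unadjusted p under 0.05 there were 14 higher and 18 lower over the 6 lists, beside 877 higher and 547 lower of all 11699 genes. The cell cycle inhibitor Cdkn1a stood at 20.05 and 20.3 CPM against 14.5 and 16.3 CPM (-0.39, adjusted p = 0.317). The factor Irf8 stood at 338, 390, 443 and 350 CPM in vehicle 1, vehicle 2, PM 1 and PM 2 (0.13, adjusted p = 0.766).

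**Figure D4:**
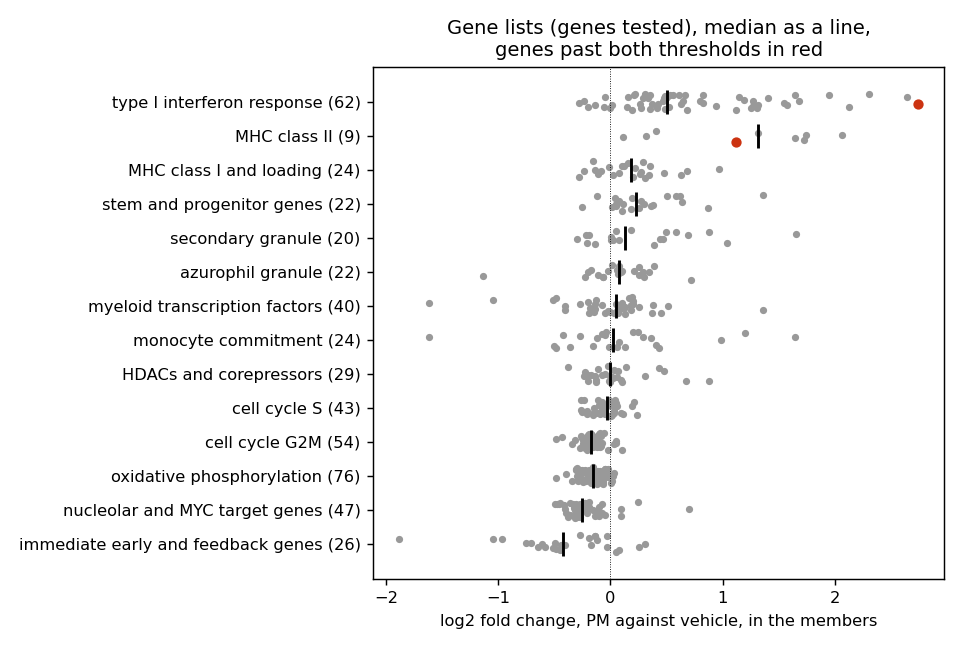
Log2 fold changes (PM against vehicle) in the members for the tested genes of 14 lists, with 1 point per gene, the list median as a black line and genes past both thresholds in red. The type I interferon and MHC class II lists have medians of 0.50 and 1.32, and the immediate early list has a median of -0.43.

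The third comparison asked whether the PM effect in the members differed from that in neighbouring populations of the same mice, with the mouse kept as a block. Against early neutrophil precursors (833, 540, 941 and 575 cells in vehicle 1, vehicle 2, PM 1 and PM 2), 1208 of 12032 genes differed at an adjusted p under 0.05 (10.0%). With each mouse left out in turn, this count was 458 without vehicle 1, 1875 without vehicle 2, 170 without PM 1 and 988 without PM 2. In the precursors themselves, 463 genes rose and 110 fell after PM, called by the same limits. Granule transcripts also differed within the precursor gate. In vehicle 1, vehicle 2, PM 1 and PM 2, Elane stood there at 1027, 1111, 2106 and 1759 CPM. Ltf stood at 12127, 9560, 6396 and 7360 CPM, while Camp overlapped at 33362, 39355, 38151 and 34396 CPM. The part of a changed make-up of the precursor gate in the 1208 genes was not tested. Orm1, an acute-phase glycoprotein, stood at 205, 159, 73.3 and 60.9 CPM in the precursors and at 6.24, 4.55, 8.94 and 6.33 CPM in the members of these mice. The PM effect was higher in the members by 1.92 ± 0.16 on the log2 scale (adjusted p = 7.36e-06). Fpr2, a formyl peptide receptor, and St3gal5, a sialyltransferase, differed in the same direction by 1.76 and 1.59. Both fell in the precursors (-1.32 and -1.19) and were under 6 CPM in the members. Myadm, Alad, an enzyme of haem synthesis, and Srm (spermidine synthase) differed the other way, by -1.59, -1.57 and -1.52. Srm rose by 1.11 in the precursors and stood at 201, 142, 121 and 147 CPM (-0.36) in the members.

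Against cycling monocyte progenitors (317, 241, 318 and 185 cells), 85 of 11683 genes differed (0.728%), and 31 without vehicle 1, 131 without vehicle 2, 35 without PM 1 and 161 without PM 2. Cx3cr1, the fractalkine receptor of monocytes, stood at 40.9, 55.9, 36.5 and 36.7 CPM in the monocyte progenitors and at 5.44, 7.35, 12.7 and 16.5 CPM in the members. The difference of the effects was 1.59 ± 0.21 (adjusted p = 0.000107), while its own log2 fold change in the members (1.20) had an adjusted p of 0.0753. Pilra and Lrp1 fell in the monocyte progenitors (-1.08 and -0.98) and stood at 0.19 and 0.22 in the members, differences of 1.29 and 1.24. Vamp5, Cd24a and the interferon-stimulated Samd9l rose in the monocyte progenitors (1.56, 1.20 and 1.30) and stood at 0.17, 0.20 and 0.29 in the members, differences of -1.35, -1.01 and -1.01. Samd9l stood at 21.97, 28.3, 62.9 and 60.3 CPM there and at 17.0, 16.1, 22.8 and 17.6 CPM in the members.

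Against early stem and multipotent progenitors (65, 48, 90 and 60 cells), 6 of 12071 genes differed (0.0497%), and between 9 and 116 with 1 mouse left out. Ly6a rose in the members, from 1.69 and 0.934 CPM to 10.2 and 7.78 CPM, and stood at 100, 24.5, 116 and 63.5 CPM in the stem population (0.56, adjusted p = 0.998), so that its level in the members stayed below theirs in each mouse. The difference of the effects was 2.24 ± 0.42 (adjusted p = 0.0386). Slpi and Cbx6 differed in the same direction by 1.94 and 1.20, and Pim1, a kinase downstream of cytokine receptors, the other way by -0.86. Pim1 stood at 415, 176, 99.2 and 141 CPM in the members (-1.31 ± 0.53, adjusted p = 0.465) and at 869, 418, 373 and 621 CPM in the stem population, where vehicle 1 was the highest in both. In the stem population itself no gene of 8922 was called by edgeR, and 187 were higher and 163 lower at an unadjusted p under 0.05.

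**Figure D5:**
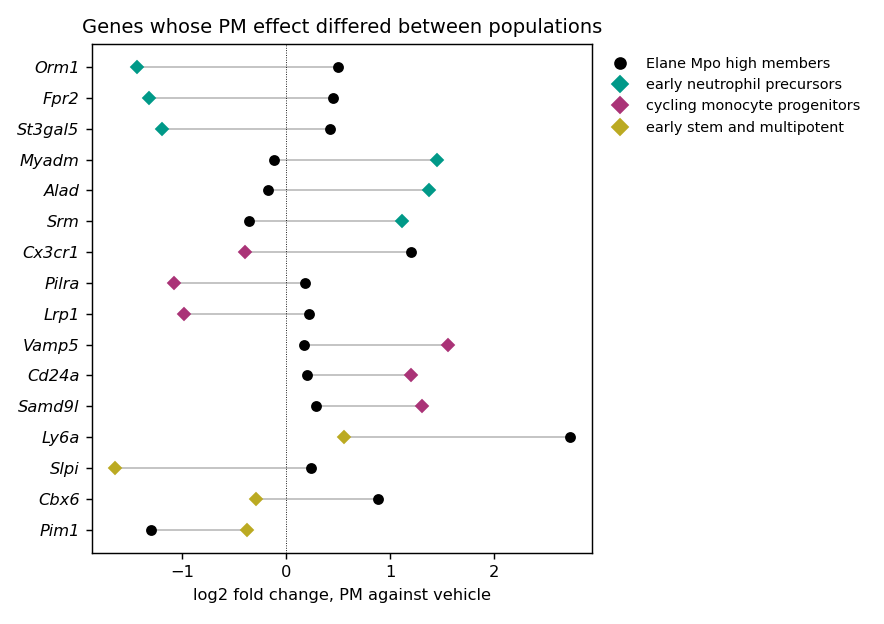
Log2 fold changes (PM against vehicle) of 16 genes whose PM effect differed, in the members (black circles) and in the population they were compared with (coloured diamonds), joined by a line for each gene. The 6 genes compared with early neutrophil precursors moved by 1.11 or more in those cells and by less than 0.50 in the members.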

How the data were processed

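Cell Ranger 6.0.1 made the files. Per the study's methods, reads were aligned to GRCm38, and the authors deposited raw counts, UMI numbers for each gene in each barcode, of 9516, 8242, 13848 and 9787 barcodes in vehicle 1, vehicle 2, PM 1 and PM 2. Filters of 300 genes and 20% mitochondrial UMIs were those of the study. The members and the gene lists were chosen with earlier results of these data known. Member counts were summed per mouse and tested with edgeR 4.0.16 (filterByExpr, TMM, robust quasi-likelihood fit) in R 4.3.3, with condition as the only term and DESeq2 1.42.0 as an alternative. Interactions were fitted at an adjusted p under 0.05 with the mouse as a block. Thinning drew 5000 UMIs per member (seed 1), leaving out 19 members below that depth.

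Doublets stayed in. As an alternative, the highest Scrublet scores were called at 0.8% per 1000 barcodes, since the automatic threshold called almost none, a choice made after this was seen. Of all barcode sequences, 166 occurred in more than 1 library, among them those of 15 members, and none belonged to members of 2 libraries. Named genes were the 6 markers and the gate genes, called genes of at least 20 CPM with the same direction in all 4 pairs, the called and the 2 most abundant genes of each of 35 lists, up to 3 called genes per direction of each interaction, and the 15 genes with the highest ratio. Gene positions are from GENCODE M21, which held 99.6% of the gene IDs. The statistics were tested on simulated data. Some items are not reported here.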

Additional observations from a re-analysis of the deposited data

Results flagged for a closer look

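The PM effect differed between the members and other populations of the same mice, by a test of the difference itself, for 1208 genes against early neutrophil precursors, for 85 against cycling monocyte progenitors and for 6 against early stem and multipotent progenitors (edgeR, Benjamini-Hochberg adjusted p under 0.05). On the log2 scale, as the effect in the members minus that in the early neutrophil precursors, the named genes were Orm1 (1.92), Fpr2 (1.76), St3gal5 (1.59), Myadm (-1.59), Alad (-1.57) and Srm (-1.52). Against cycling monocyte progenitors they were Cx3cr1 (1.59), Pilra (1.29), Lrp1 (1.24), Vamp5 (-1.35), Cd24a (-1.01) and Samd9l (-1.01). Against early stem and multipotent progenitors they were Ly6a (2.24), Slpi (1.94), Cbx6 (1.20) and Pim1 (-0.86). Elane and Ltf levels within the early neutrophil precursor gate also differed between the groups, and the part of this in the 1208 genes was not tested. Groups of 2 mice are too small for a test of single outlying mice.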

How the results depend on the processing

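The counts of genes called higher and lower, 17 and 2, were 10 and 2 with RLE size factors, 38 and 11 with DESeq2, 271 and 66 with no low-count filter, 68 to 253 and 24 to 126 with 1 mouse left out, 29 and 4 with limits of 5 UMIs, 41 and 3 with 20 UMIs, 18 and 3 with scaled gates, 26 and 4 with at most 2 Camp UMIs, and 43 and 5 without called doublets. With choices made after seeing the data, they were 8 and 0 in the members without lineage UMIs (348 and 320 at an unadjusted p under 0.05) and 11 and 2 after thinning to 10000 UMIs. A mouse number shared between groups did not pair the samples (correlation of deviations -0.149), and the replicate block gave 92 and 20, the crossed pairing 174 and 33. Of the 19 called genes, 19 were called with each mouse left out (where the lone mouse of a group is assumed to vary like the other group), with DESeq2 and with the replicate block, 13 with scaled gates, 12 with RLE size factors, 11 with at most 2 Camp UMIs, 9 after thinning to 10000 UMIs and 3 in the members without lineage UMIs, where 6609 genes were tested in 116 members. There H2-Ab1 reversed to -0.34.

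The ratio of shares was 1.33 to 1.45 with 1 mouse left out, 1.51 with scaled gates and 1.32 to 1.45 under other gates. It was 1.23 where members and other cells alike had less than 1% S100a8 and S100a9. Interaction counts without a filter were 1664, 211 and 32, and with 1 mouse left out 170 to 1875, 31 to 161 and 9 to 116. The difference in members with Mki67 or Top2a was -0.692 points without thinning, where nearly all members hold a UMI, -6.36 at 3000 UMIs, and -7.16 to -4.85 with 1 mouse left out. Differences in the thinned share of members with a gene changed sign where the groups overlap or lie close: for Irf8 -5.53 to 2.50 points with 1 mouse left out (positive without PM 2), for Csf1r -3.48 to 3.66 (negative without vehicle 1, -0.529, or PM 1) and -3.89 without thinning, for Kit -0.244 to 10.7 (negative without PM 2) and for Flt3 -0.708 without thinning. The cause of these changes was not tested. With 2 mice per group, precision is limited by their number.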

Other observations

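Other gene groups in the members had no gene called by edgeR, which called 0.162% of all genes tested. At an unadjusted p under 0.05, 877 of all 11699 genes were higher and 547 lower, which stands beside each count at that limit below. Of 19 tested chemokine and cytokine genes, 5 were higher and 1 lower after PM at an unadjusted p under 0.05, with a median log2 fold change of 0.34. The chemokine Ccl9 stood at 80.99 and 75.3 CPM in the vehicle mice and at 123 and 83.1 CPM in the PM mice (0.40, edgeR adjusted p = 0.406). MHC class I and peptide loading genes had a median of 0.18 over 24 tested, with 1 higher and 1 lower at an unadjusted p under 0.05. B2m, the light chain of class I molecules, stood at 1360 and 964 CPM against 1374 and 1422 CPM (0.27, edgeR adjusted p = 0.59). The median was -0.03 over 20 G1 cyclins and inhibitors, -0.04 over 21 actin and S100 genes and -0.05 over 27 haem and NADPH oxidase genes. At an unadjusted p under 0.05, these lists had 1 higher and 3 lower, 1 higher and 0 lower, and 1 higher and 1 lower. DESeq2 called none in these 5 lists but Ifi27l2a, an interferon-stimulated gene that the actin and S100 list also holds.

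Marker genes of further cell types were low in the members. Erythroid markers summed to 0.303, 0.193, 0.311 and 0.446 per 1000 UMIs in vehicle 1, vehicle 2, PM 1 and PM 2. Over the 4 mice Tfrc, the transferrin receptor, was the most abundant of them, at 149, 143, 91.5 and 140 CPM (-0.34, edgeR adjusted p = 0.493), and in PM 1 the globin gene Hbb-bs was, at 30.6, 12.4, 92.1 and 101 CPM over the mice (2.14, edgeR adjusted p = 0.262). A single member held 1116 of the 1421 Hbb-bs UMIs of PM 1, and another 948 of the 1254 of PM 2. Plasma cell and 5T myeloma markers summed to 0.362, 0.241, 0.293 and 0.33, led by Xbp1. Eosinophil markers summed to 0.256, 0.193, 0.237 and 0.386, led by Cebpe. None of these markers was called by edgeR or DESeq2, and in each of the 3 lists 1 was higher at an unadjusted p under 0.05, beside 877 of all 11699 genes.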
